A study of Homo sapiens with 3 samples.

Results

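The protein genes of the large ribosomal subunit were described in RNA sequencing data of MTAC-P, a human lung cancer line that was derived from PC9 and resists EGFR tyrosine kinase inhibitors. The 45 genes, RPL3 to RPL41 with RPLP0, RPLP1 and RPLP2, were chosen by name and make up 45 of the 26565 genes in the deposited tables. All 45 were found, and all 45 were among the 3889 genes tested. One library came from cells with a short hairpin against luciferase (the control) and 2 from cells labelled with hairpins against BCAT1, the cytosolic aminotransferase of branched-chain amino acids (shBCAT1 1 and shBCAT1 2). All cells grew in DMEM with 10% serum and are derivatives of a single line. Where 3 values of a gene stand in a row below, they are those of the control, of the library labelled shBCAT1 1 and of the library labelled shBCAT1 2, in that order. Whether the libraries labelled shBCAT1 carry 1 hairpin or different ones, or come from separate cultures, is not given, so the p-values measure the spread between these libraries only, which may be technical.

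BCAT1 did not follow the labels. Its levels were 0.213 FPKM (bounds 0.129 to 0.297), 1.05 FPKM (0.835 to 1.27) and 0.241 FPKM (0.158 to 0.325), so the libraries are compared here as labelled, not as cells shown to hold less BCAT1. FPKM counts fragments scaled to transcript length and to all mapped fragments of the library, and its bounds are the confidence bounds deposited with it. For genes of several transcript entries the bounds are combined over the entries. The sum of FPKM over all genes was 53898, 44312 and 46145. The bounds put the depth of the libraries labelled shBCAT1 1 and 2 at 1.03 and 1.09 times that of the control. The 6 epithelial markers EPCAM, CDH1, KRT7, KRT8, KRT18 and KRT19 summed to between 786 and 1092 FPKM. The 4 lung lineage markers NKX2-1, SFTPB, SFTPC and NAPSA summed to between 0.0571 and 0.324 FPKM, with SFTPC listed at 0 in all 3 libraries. Fibroblast, immune and endothelial markers each summed to between 0.105 and 0.259 FPKM.

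The large subunit joins amino acids at its peptidyl transferase centre and passes the growing chain through its exit tunnel, while its proteins fold, brace and extend the ribosomal RNA. Its protein mRNAs are short and abundant, and are needed in like amounts. They are also the best known TOP mRNAs: their 5′ end starts with a C followed by a run of pyrimidines, the 5′ terminal oligopyrimidine motif, through which mTORC1 and the RNA-binding protein LARP1 control their translation and stability.

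The first bases of some of these mRNAs are shown because the run of pyrimidines is a sequence feature of many members, though not of all annotated starts. Each line is a window of the GRCh38.p14 assembly from RefSeq, 15 bases before and 15 bases from the start base on, written 5′ to 3′ on the gene's strand. The unbroken run of C and T from the start base is in capitals where it begins with C and holds at least 4 more C or T. The first 4 are from the 5 members with the most negative differences between libraries, the next 3 from the 5 with the least negative.
RPL38 (chr17:74203663-74203692, plus strand): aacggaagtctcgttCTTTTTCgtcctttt
RPL39 (chrX:119791616-119791645, minus strand): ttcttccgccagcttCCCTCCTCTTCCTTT
RPL41 (chr12:56116618-56116647, plus strand): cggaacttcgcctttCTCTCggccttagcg
RPLP2 (chr11:809952-809981, plus strand): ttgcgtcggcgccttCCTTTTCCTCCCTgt
RPL22 (chr1:6199581-6199610, minus strand): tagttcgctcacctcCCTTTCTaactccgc
RPL10 (chrX:154398362-154398391, plus strand): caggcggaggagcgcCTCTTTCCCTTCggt
RPL3 (chr22:39319609-39319638, minus strand): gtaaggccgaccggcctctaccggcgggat

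The RefSeq promoter table held a start for 38 of the 45 members, and in 29 of these it lay within 50 bases of the start of the deposited entry. Of those 29 starts, 19 (65.5%) began with C and at least 4 further pyrimidines, against 4.07% of the 35116 starts in the table. The run had a median of 8 bases in the 19 members and reached 19 bases in RPL39. The start of RPL3 misses the rule, with a run of 4. RPL22 and RPL10, with runs of 7 and 12 bases, were near the least negative end of the library differences, so long runs stood at both ends of the order. The median log2(FPKM + 1) difference, given in full below, was -0.55 in the 19 members with such a start and -0.44 in the other 10. No test was made of these values, and a start annotated a few bases away would change them.

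The members were among the most abundant mRNAs of the control. Their levels ran from 9.72 FPKM (RPL27A) to 372 FPKM (RPL29), a 38.2-fold range with a median of 103 FPKM, and 27 of the 100 most abundant genes tested were members. RPL29 (372 FPKM), RPL41 (347), RPL8 (344), RPL39 (324) and RPL14 (253) were highest in the control. RPL27A (9.72 FPKM), RPL22 (17.0), RPL15 (18.1), RPL34 (21.99) and RPL13 (24.0) were lowest. The order is one of fragments per annotated base. RPL27A, entered with a transcript of 4879 bases, rested on about 683 equivalent fragments (the square of the level over its counting SD), while RPL27, entered with 490 bases, rested on 528 and stood at 122 FPKM. Counting error was small for most members, with a median SD of 3.74% of the level in the control and 4.23% in each library labelled shBCAT1. The SD was wide for RPLP0 and RPL11 in the control and for RPL34 and RPL36 in the library labelled shBCAT1 2. It was less wide for RPL34 (19.9%) and RPL15 (13.9%) in the control. In these genes the bounds of several transcript entries add up. RPLP0 had 3.67 equivalent fragments in the control and 1048 in the library labelled shBCAT1 1, so its SD in the control holds more than counting error. Neighbours in the order often did not differ beyond these bounds.

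**Figure D1:**
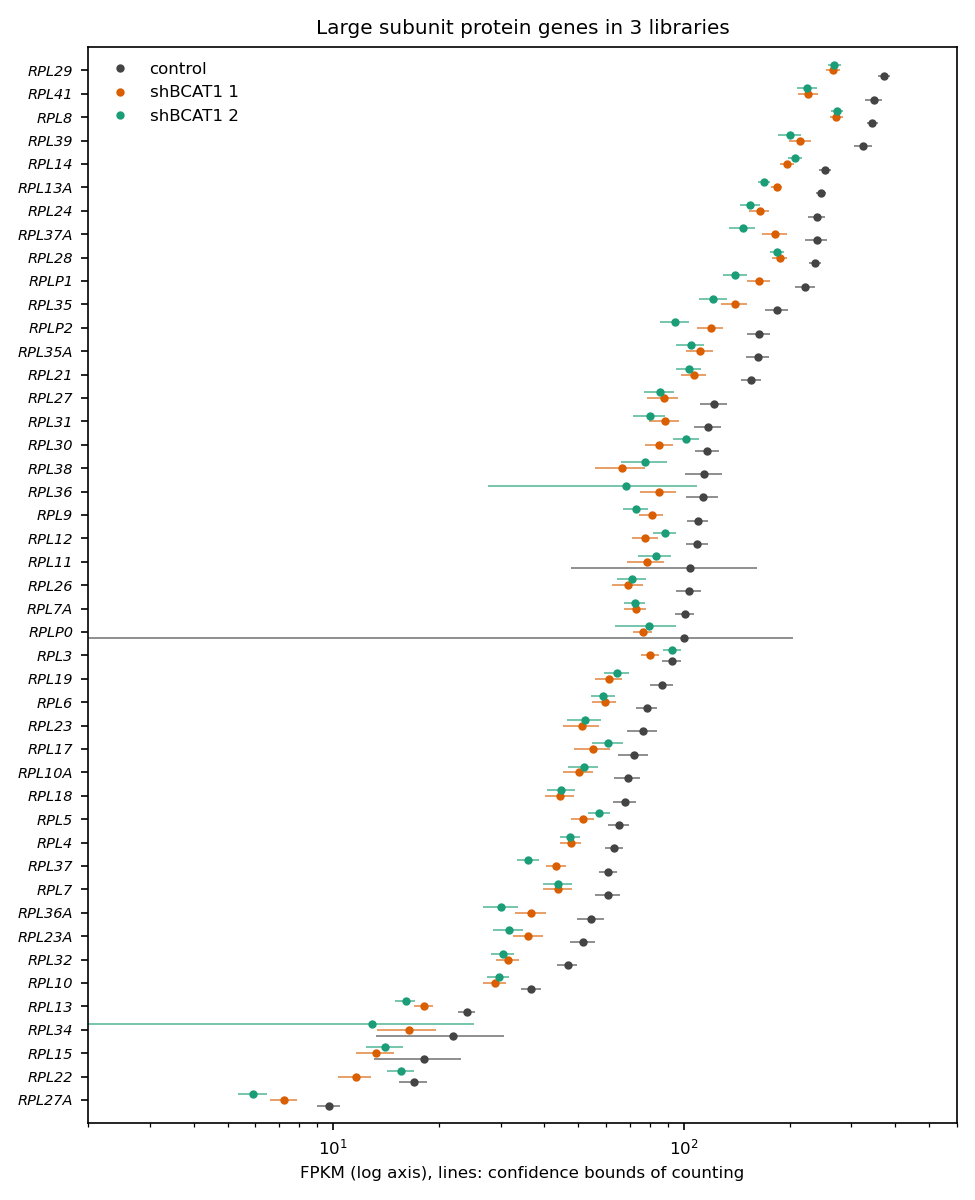
FPKM of the 45 large subunit protein genes in each library, on a log axis, with points for the level and lines for confidence bounds. The bounds are as deposited for the 23 members of 1 entry and combined over entries for the other 22. They do not cover spread between cultures, and are cut at the axis edge for RPLP0 and RPL34. The control point lies to the right of both libraries labelled shBCAT1 in every gene but RPL3, where the library labelled shBCAT1 2 (92.5 FPKM) stands level with it (92.4 FPKM). That order is of the values as deposited, and after quantile normalization 28 genes keep it.

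Together the members held 10.7%, 9.45% and 8.82% of all FPKM. The mean of the latter pair was 9.13% ± 0.449 (SD, n = 2), 1.58 points below the single control library (a difference of -1.58 points). The gap was larger than the spread between the libraries labelled shBCAT1. With 1 control library, both others often lie on the same side of it. By FPKM, 43.7% of all genes tested were lower in both and 25.6% higher in both. The sum of the members was 5772 FPKM in the control and 0.726 and 0.705 times that in the libraries labelled shBCAT1 1 and 2. The sum of all other genes was 0.834 and 0.874 times the control's. The proteins of the small subunit moved alongside, at 8.51%, 7.39% and 6.76% of all FPKM. FPKM is relative to the library's total, and in bulk RNA fewer cells of a kind and less RNA per cell cannot be told apart.

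Setting the control beside the libraries labelled shBCAT1 asks which mRNAs differ between the hairpin labels. As deposited, 44 of the 45 members were lower in both libraries than in the control, against 43.7% of all genes tested, and none was higher in both, against 25.6%. The exception was RPL3. The mean difference turned positive under other scalings in RPL3 (same FPKM total) and in 10 members (quantile normalization). Quantile normalization left 28 members lower in both, against 32.2% of all genes in that setting. Relative to the control, the median member stood at 0.730 (shBCAT1 1 by label) and 0.687 (shBCAT1 2 by label), and the median of all genes at 0.889 and 1.01. In 40 of the 45 members the mean of both libraries lay between 0.6 and 0.8 times the control. The 2 comparisons share the control library and are not independent of each other.

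On the scale of the test, log2(FPKM + 1), the median difference was -0.48 over the members (-0.45 and -0.54 for the libraries labelled shBCAT1 1 and 2) and -0.06 over all genes tested, so the members stood 0.42 below the median gene (-0.42). Differences ranged from -0.69 to -0.10, with an SD of 0.125 over the members against 0.447 over all genes tested. The latter had a median level of 2.50 FPKM in the control and differences from -9.36 to 3.33. Among coding genes of at most 1000 bases and at least 50 FPKM, the quartiles were -0.59 and -0.41 in 34 members. They were -0.60 and -0.39 in 31 non-ribosomal genes. No member passed an adjusted p under 0.05 in limma, against 0.36% of all genes tested. The lowest adjusted p, shared by 39 members, was 0.797 in limma. At an unadjusted p under 0.05 in limma, 24 members were lower, against 4.96% of all genes, and 0 were higher, against 0.643%. That count was 13 without limma's intensity trend, 1 with median-of-ratios scaling, and 0 with the same FPKM total, quantile normalization or the level trend removed. None was 2-fold lower in both libraries, against 0.411% of all genes. With 1 control library any shift of that library enters every member's difference, and this was not tested.

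By their bounds alone, 35 members lay wholly below the control's bounds in both libraries labelled shBCAT1, against 4.17% of all genes tested. None lay wholly above in both, against 1.26%. Bounds are narrower, relative to the level, at high FPKM. The median level in the control was 103 FPKM in the members and 2.50 FPKM over all genes tested. Here and below, these shares of all genes are therefore not a baseline of like level. The other 10 were RPL3, RPL5, RPL17, RPL22, RPL30 and RPL36, apart from the control in the library labelled shBCAT1 1 only, and RPL11, RPL15, RPL34 and RPLP0, apart in neither. The libraries labelled shBCAT1 also differed from each other. RPL13A, RPL27A, RPL37, RPL37A and RPLP2 were lower in the library labelled shBCAT1 2 with bounds apart, and RPL3, RPL22 and RPL30 were higher in it. The SD over members was 0.0976 for the log2 difference of the library labelled shBCAT1 1 and 0.188 for that of the library labelled shBCAT1 2.

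**Figure D2:**
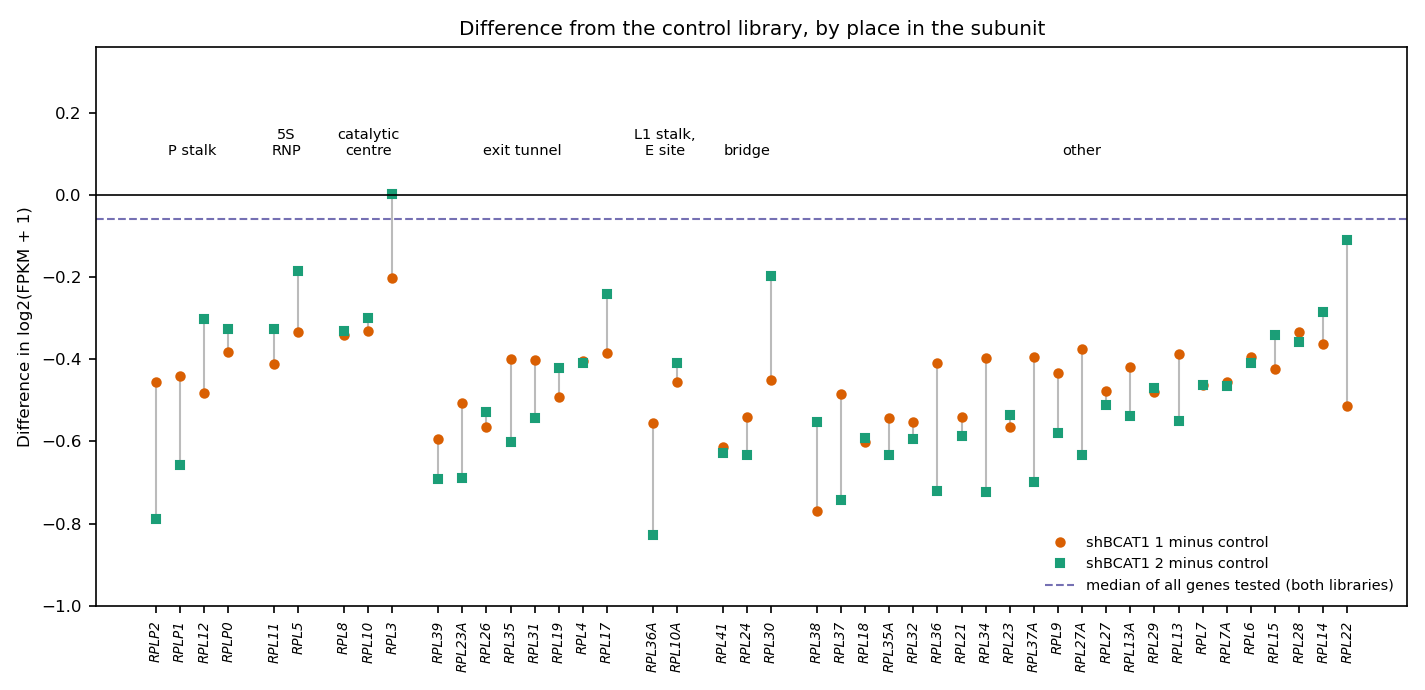
Difference in log2(FPKM + 1) from the control for each member, with circles for the library labelled shBCAT1 1, squares for shBCAT1 2 and a dashed line at the median of all genes tested (-0.06), grouped by place in the subunit. All circles and all squares but that of RPL3 (0.00134) lie below 0 as deposited. Both differences share 1 control library, and quantile normalization turns 10 of the members' mean differences positive.

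The P stalk is the arm of the subunit that recruits the elongation factors. RPLP0 anchors it, pairs of RPLP1 and RPLP2 form its tip, and RPL12 sits at its base. RPLP2 stood at 164, 119 and 94.4 FPKM, a log2 difference of -0.62 ± 0.20 (SE) with an unadjusted p of 0.039 in limma. RPLP1 stood at 222, 163 and 140.2 FPKM (-0.55 ± 0.17). Both tip proteins were lowest in the library labelled shBCAT1 2. RPL12 stood at 109, 77.7 and 88.2 FPKM (-0.39 ± 0.17) and RPLP0 at 99.7, 76.3 and 79.3 (-0.35 ± 0.16), so the control was highest in all 4 genes. The bounds of RPLP0 in the control, split over 2 entries, are so wide (an SD of 52.2% of the level) that they overlap those of both other libraries. In the library labelled shBCAT1 1 the SD was 3.09%.

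RPL5 and RPL11 carry 5S ribosomal RNA into the subunit, and outside it their complex can bind MDM2, the ubiquitin ligase of p53. RPL5 stood at 65.2, 51.5 and 57.2 FPKM, a log2 difference of -0.26 ± 0.18 (SE). RPL11 stood at 104, 78.2 and 83.0 FPKM (-0.37 ± 0.16). Neither passed the unadjusted p in limma. The group's median was -0.31 as deposited, and it turned positive under quantile normalization (0.09) and with the trend on level removed (0.05). CDKN2A, whose product ARF restrains MDM2, stood at 24.0, 16.6 and 15.4 FPKM, a log2 difference of -0.56 ± 0.19 (SE). MDM2 was below the minimum of 1 FPKM for testing, at 0.480, 0.533 and 0.480 FPKM.

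RPL3, RPL8 and RPL10 reach towards the peptidyl transferase centre, and RPL10 is among the last proteins to join the subunit. RPL8 stood at 344, 272 and 274 FPKM (-0.34 ± 0.12, SE of the log2 difference). RPL10 stood at 36.7, 28.95 and 29.6 FPKM (-0.32 ± 0.18). In both genes the libraries labelled shBCAT1 agreed closely and lay below the control with bounds apart. RPL3 stood at 92.4, 80.2 and 92.5 FPKM (-0.10 ± 0.18), the least negative difference of all members. The median of these 3 genes was -0.32 and turned positive under quantile normalization (0.04) and with the trends on transcript length (0.05), on level (0.11) or on both (0.01) removed.

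The near-level sum of RPL3 (chromosome 22, 39312882 to 39319665, hg38) covered entries that moved apart. The entry of its main transcript (entry A) was at 54.1 FPKM (bounds 49.6 to 58.5), 66.3 (62.1 to 70.5) and 64.3 (60.03 to 68.5). A second RefSeq transcript of the same locus (entry B) was at 38.3 FPKM (34.3 to 42.3), 13.96 (11.4 to 16.5) and 28.2 (24.8 to 31.6). Entry A was thus above the control in both libraries and entry B below it, each with bounds apart. How fragments shared by both transcripts were split is not given in the sources used here, so the entries are less certain than their sum. RPL28 also had entries with opposite values. Its main entry (entry A) was at 212, 148 and 157 FPKM, while a shorter transcript (entry C) was at 5.53 (2.90 to 8.16), 21.2 (16.3 to 26.2) and 10.5 (7.05 to 14.04). The bounds of entry C were apart from the control's in the library labelled shBCAT1 1 only. The second entry of RPL8 was at 48.6, 54.4 and 51.3 FPKM, against a sum of 344 in the control. These entries were singled out after their values were seen.

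**Figure D3:**
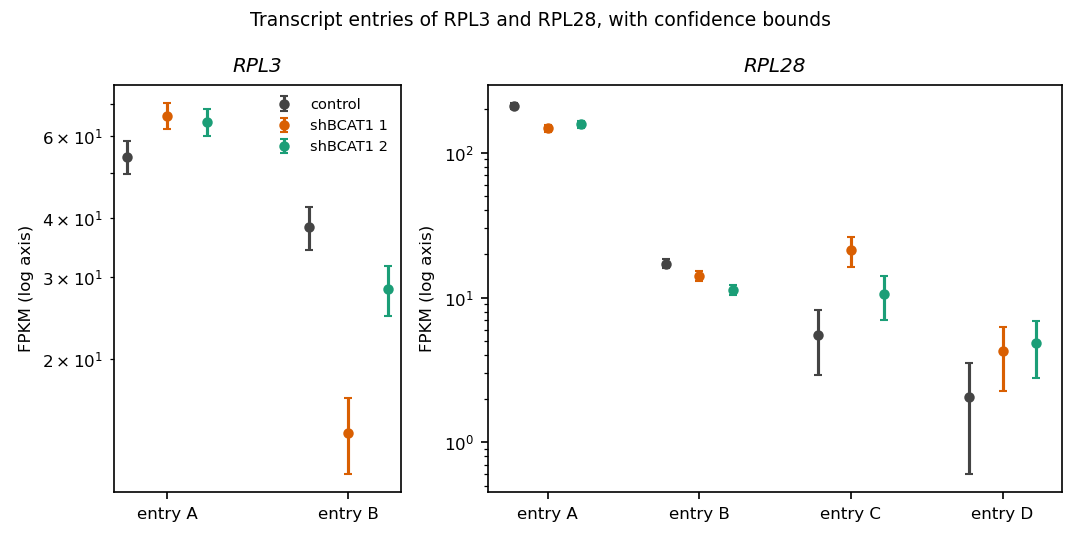
FPKM of the transcript entries of RPL3 and RPL28 in each library, on log axes, with bars for the deposited confidence bounds and entries lettered by level. Entry A of RPL3 stands higher in both libraries labelled shBCAT1 (66.3 and 64.3 FPKM) than in the control (54.1), while entry B stands lower.

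The genes for exit tunnel proteins were lower in both libraries in 8 of 8 as deposited, against 43.7% of all genes tested. Bounds were apart in 7, against 4.17% of all genes. Their median difference of -0.49 stayed negative under each scaling tried. RPL4 and RPL17 line the narrow part of the tunnel and RPL39 its lower part. RPL19, RPL23A, RPL26, RPL31 and RPL35 ring the exit where chaperones and the signal recognition particle dock. RPL39 stood at 324, 215 and 201 FPKM (-0.64 ± 0.13, SE of the log2 difference), with an unadjusted p of 0.0089 in limma. RPL23A stood at 51.6, 36.04 and 31.6 FPKM (-0.60 ± 0.19). RPL26 stood at 103, 69.4 and 71.2 FPKM (-0.55 ± 0.16). In all 8 exit tunnel genes the control was highest by more than the gap between the libraries labelled shBCAT1. RPL35 stood at 185, 139.7 and 121 FPKM (-0.50 ± 0.17). RPL31 stood at 117, 88.2 and 80.0 FPKM (-0.47 ± 0.16). RPL19 stood at 86.6, 61.3 and 64.4 FPKM (-0.46 ± 0.16). The genes of the narrow part were less negative. RPL4 stood at 63.2, 47.6 and 47.4 FPKM (-0.41 ± 0.17) and RPL17 at 72.1, 55.0 and 60.8 FPKM (-0.31 ± 0.17), the latter with bounds that met the control's in the library labelled shBCAT1 2.

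RPL10A forms the L1 stalk, which swings with the outgoing tRNA, and RPL36A contacts that tRNA in the exit site. RPL36A (chromosome X, 101390890 to 101396154) had the most negative difference of all members, with 54.4, 36.7 and 30.2 FPKM (-0.69 ± 0.21, SE of the log2 difference, unadjusted p of 0.030 in limma). Its bounds were apart from the control in both. RPL10A stood at 69.1, 50.1 and 51.7 FPKM (-0.43 ± 0.17). The readthrough transcript RPL36A-HNRNPH2, counted apart, was at 1.45, 1.34 and 1.94 FPKM. The paralogue RPL36AL, a close copy whose reads can be hard to tell from those of RPL36A, was at 36.5, 35.1 and 30.2 FPKM.

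RPL24, RPL30 and RPL41 take part in bridges to the small subunit, and RPL41 encodes one of the shortest human proteins. RPL41 stood at 347, 226 and 224 FPKM (-0.62 ± 0.13, SE of the log2 difference), with an unadjusted p of 0.0079 in limma, the lowest of all members. RPL24 stood at 239.6, 164 and 154 FPKM (-0.59 ± 0.14). Both were lower in both libraries with bounds apart. RPL30 stood at 117, 85.1 and 102 FPKM (-0.32 ± 0.19), and the libraries labelled shBCAT1 differed from each other with bounds apart.

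The other 23 members lay in other parts of the subunit. All 23 were lower in both libraries as deposited, against 43.7% of all genes tested. Their median difference was -0.50, and bounds were apart in 19, against 4.17% of all genes. RPL38, a small protein of the subunit's surface, stood at 114, 66.6 and 77.6 FPKM (-0.66 ± 0.18, SE of the log2 difference). RPL22, whose paralogue RPL22L1 can take its place, stood at 17.0, 11.6 and 15.6 FPKM (-0.31 ± 0.26). RPL22L1 itself was below the test minimum, at 0.586, 0.550 and 0.278 FPKM. RPL35A, which like RPL5 and RPL11 is mutated in Diamond-Blackfan anaemia, stood at 163, 111 and 104 FPKM (-0.59 ± 0.15). RPL13A, a protein with a second role in silencing inflammatory mRNAs, stood at 246, 184 and 169 FPKM (-0.48 ± 0.14). RPL29, the most abundant member, stood at 372, 266 and 268 FPKM (-0.47 ± 0.12). Small nucleolar RNA genes lie in 18 members, 38 in all, and the median difference was -0.47 in those 18 and -0.49 in the other 27. RPL21 had a second entry on chromosome 10 at 4.85, 4.82 and 4.23 FPKM, beside 151, 102 and 99.0 FPKM for the gene on chromosome 13. Named pseudogenes of the family summed to between 6.80 and 9.25 FPKM, and reads of the many unlisted near-identical processed copies could be split with any member.

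Transcript length moved with the differences in all genes, and the members are short. Their annotated lengths ran from 344 to 4879 bases with a median of 695, against a median of 1892 over all genes tested. Across genes, which are not independent replicates, the correlation of the log2 difference with log2 length was 0.407 over 3831 genes with a length and 0.352 over the 45 members, which share their libraries and the control. Coding genes of no cytosolic ribosomal protein were also lower when short. At 300 to 500 bases the median difference was -0.57 in 8 members and -0.45 in 61 such genes. At 500 to 700 bases it was -0.55 in 15 members and -0.40 in 147 non-ribosomal genes, and at 700 to 1000 bases -0.46 in 12 and -0.29 in 345. RPL4 and RPL37, annotated at 569 and 637 bases, had 18.6 and 20.6 equivalent fragments per FPKM in the control, against 5.63 in RPL23 with 615 bases, so their annotated lengths are doubtful. Without them the 13 members left at 500 to 700 bases had a median of -0.55. Above 1500 bases non-ribosomal genes were near 0 and the members were not. At 1500 to 2500 bases the median was -0.35 in 4 members and -0.05 in 1114 non-ribosomal genes, and at 2500 to 5000 bases -0.49 in 2 members (RPL13 and RPL27A) and 0.05 in 1031. These long members also differed in level, at 9.72 (RPL27A) to 46.6 FPKM (RPL32) in the control, against a median of 2.50 FPKM over all genes tested.

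Level moved with the differences too. Level was read in the control, the library subtracted in every difference, so a control value that is high by error also lowers the difference. The part of this in the medians below was not tested. At 5 to 10, 10 to 20 and 20 to 50 FPKM in the control, non-ribosomal coding genes had median differences of -0.17, -0.26 and -0.31. The 1, 2 and 4 members in those ranges had medians of -0.50, -0.35 and -0.51. At 50 to 100 FPKM the median difference was -0.44 in 14 members and -0.40 in 41 non-ribosomal coding genes. At 100 to 200 FPKM it was -0.50 in 14 members and -0.38 in 12 non-ribosomal genes. At 200 to 400 FPKM, with few genes to compare, it was -0.51 in 10 members and -0.18 in 9 non-ribosomal genes. For coding genes of at most 1000 bases and at least 50 FPKM, the 34 members had a median of -0.50 and were lower in both libraries in 34 of 34. The 31 non-ribosomal genes in that range had a median of -0.44 (quartiles -0.60 and -0.39) and were lower in both in 29 of 31. The members' median lay between those quartiles, and the part of length and level in their difference was not tested.

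**Figure D4:**
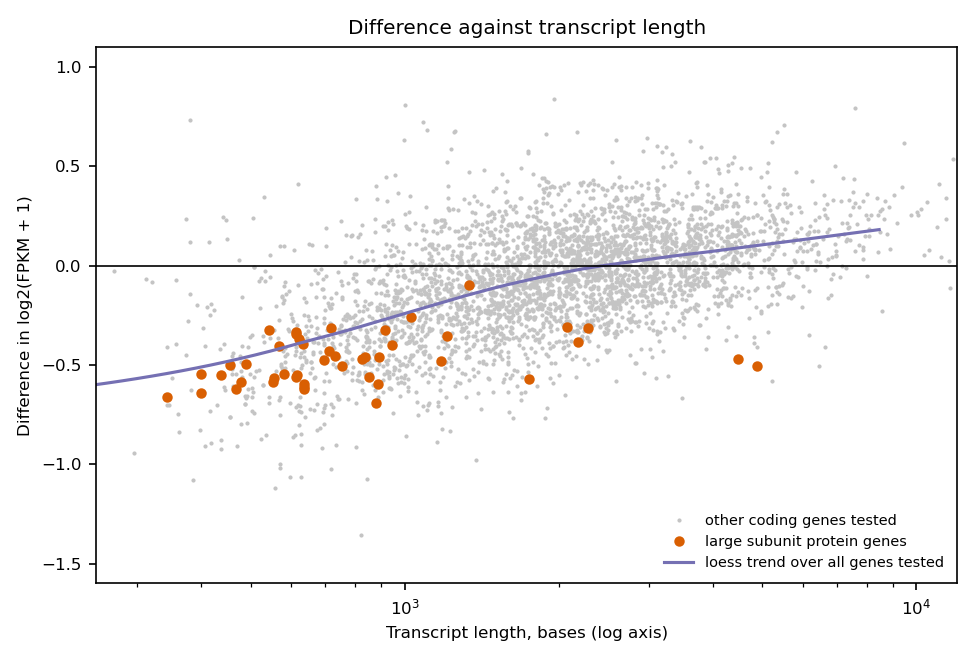
Difference in log2(FPKM + 1) between the mean of the libraries labelled shBCAT1 and the control against annotated transcript length (log axis), with large points for the 45 members, small points for other coding genes tested and a line for the loess trend over all genes. Most members, short ones included, lie below the trend, and RPL27A (4879 bases), RPL13 and RPL32 lie furthest below it. When that trend is removed, the members' median is -0.16, 34 are lower in both libraries and 6 turn positive.

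Removing these trends moved the family towards all other genes. Without the length trend the members' median was -0.16 and 34 were lower in both libraries, against 34.0% of all genes, while RPL3, RPL8, RPL11, RPL17, RPL28 and RPL30 turned positive. Without the level trend the median was -0.12 with 32 lower in both, against 35.8%. Without both together it was -0.21 with 38 lower in both, against 36.2%. With the length trend removed, RPL13 (-0.55), RPL27A (-0.60) and RPL32 (-0.50) were the 3 members at an unadjusted p under 0.05 in limma, against 1.72% of all genes lower at that p in that setting. All 3 are entered with long transcripts and low FPKM for the family. Their levels were 24.0, 18.2 and 16.1 FPKM for RPL13, 9.72, 7.26 and 5.91 for RPL27A and 46.6, 31.5 and 30.5 for RPL32. The lengths are those of the annotated transcripts, and which transcripts the cells made was not tested. The adjusted p was above 0.05 for every member in limma under each of these settings.

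The paralogues of the subunit's proteins gave mixed values. Of 7 paralogues, 4 were tested, and RPL3L and RPL10L were listed at 0. Of the 4, 3 were lower in both libraries and 1 higher in both, against 43.7% and 25.6% of all genes tested. RPL39L stood at 5.58, 2.84 and 4.02 FPKM (-0.58 ± 0.25, SE of the log2 difference) and RPL26L1 at 4.98, 2.92 and 3.97 (-0.44 ± 0.24). RPL7L1, thought to act in subunit assembly, stood at 1.36, 1.62 and 1.77 FPKM (0.19 ± 0.18). The paralogues' median of -0.30 turned to 0.07 when the length trend was removed.

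The small subunit's protein genes gave much the same picture as the large subunit's. All 33 listed were lower in both libraries as deposited, against 43.7% of all genes tested, with a median difference of -0.53. Bounds were apart in 29, against 4.17% of all genes. After quantile normalization 18 of 33 were lower in both, against 32.2% of all genes. RPS29 stood at 262, 150.1 and 123 FPKM (-0.94 ± 0.19, SE of the log2 difference). RPS21 (-0.70), RPS14 (-0.68) and RPS3A (-0.62) were next by the smaller of their 2 differences. RPS6, the substrate of S6 kinase, stood level at 111, 110.5 and 108 FPKM (-0.02 ± 0.15). FAU and RPS27A, small subunit proteins made as fusions, stood at 96.0, 69.9 and 61.2 FPKM (-0.55 ± 0.18) and at 69.1, 46.7 and 40.1 FPKM (-0.66 ± 0.19), the control highest in both. The difference between the subunits was not tested.

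The large subunit of the mitochondrial ribosome had 38 of 49 genes tested. Of these, 27 were lower in both libraries and 4 higher, against 43.7% and 25.6% of all genes tested. Their median of -0.26 came to -0.03 without the length trend. MRPL53 (-1.08 ± 0.31), MRPL47 (-0.69 ± 0.18), MRPL14 (-0.67 ± 0.20) and MRPL13 (-0.71 ± 0.19, SE) were the lowest by the smaller of their 2 differences. MRPL53 stood at 4.70, 2.28 and 1.21 FPKM. MRPL46 went the other way, at 1.25, 1.78 and 1.61 FPKM. Other mRNAs known to carry a TOP motif had 18 of 19 genes tested. Of these, 11 were lower in both libraries and 2 higher, against the same 43.7% and 25.6% of all genes. Their median of -0.23 turned to 0.02 after scaling to the same FPKM total, where the median of all genes was 0.12. After quantile normalization it was 0.01, against 0.02 over all genes. With the length trend removed it was -0.12, and 10 were lower in both, against 34.0% of all genes. With the level trend removed it was -0.0055. NAP1L1, a histone chaperone, stood at 6.08, 4.22 and 3.85 FPKM (-0.49 ± 0.19). The elongation factor subunits EEF1B2, at 30.4, 21.5 and 23.1 FPKM, and EEF1D, at 76.0, 59.3 and 53.2 FPKM, were lower in both, as was TPT1 at 14.4, 10.4 and 11.2 FPKM. EIF4A2, a helicase of initiation, was higher in both at 1.66, 2.14 and 3.04 FPKM, with no call at an unadjusted p in limma.

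**Figure D5:**
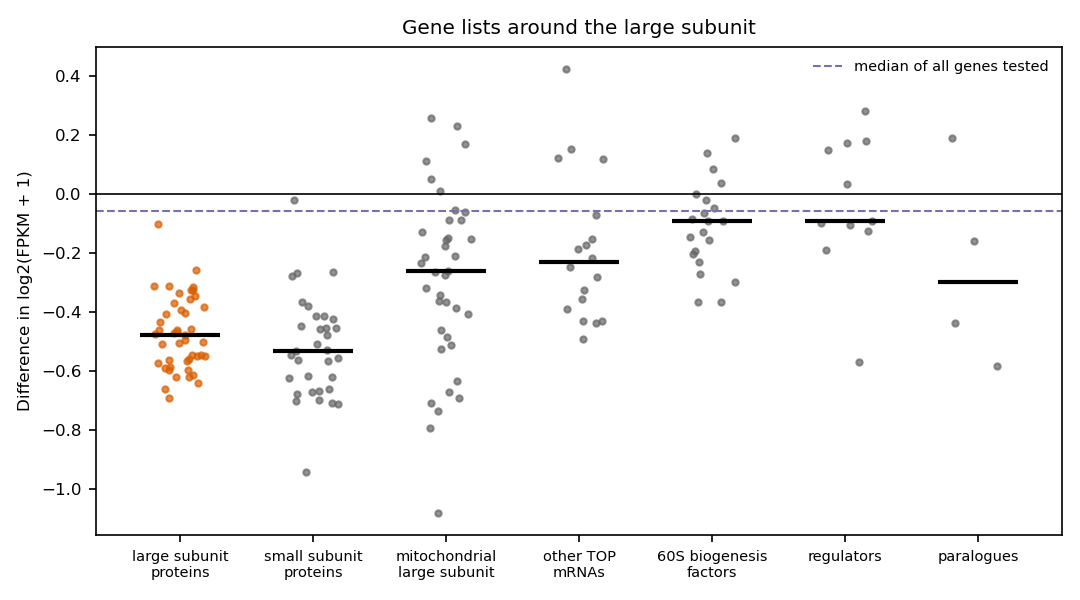
Difference in log2(FPKM + 1) between the mean of the libraries labelled shBCAT1 and the control for each tested gene of the large subunit and of the lists around it, with bars for the list medians and a dashed line at the median of all genes tested (-0.06). Both ribosomal subunits lie lowest as deposited, at medians of -0.48 and -0.53, and the factors that assemble the subunit lie near all genes. After quantile normalization the medians of both subunits are -0.11 and -0.12.

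Assembly factors of the large subunit, which fold and export it but are not part of it, had 21 of 35 genes tested. Of these, 11 were lower in both libraries and 1 higher, against 43.7% and 25.6% of all genes tested. Their median was -0.09, near that of all genes, and turned to 0.07 after scaling to the same FPKM total, where the median of all genes was 0.12. GNL3 stood at 5.94, 4.51 and 4.78 FPKM (-0.30 ± 0.19, SE of the log2 difference) and MRTO4, which keeps the stalk site for RPLP0, at 4.53, 2.90 and 3.71 (-0.37 ± 0.22). NOP53 stood at 28.1, 22.2 and 24.1 FPKM and PPAN at 4.93, 4.23 and 4.14. None of the 21 had bounds apart in both libraries, against 4.17% of all genes lower and 1.26% higher in that way. Their median level in the control was 2.61 FPKM, where bounds are wide. Of 18 regulators of TOP mRNAs and of ribosomal protein genes, 11 were tested. Of these, 2 were lower in both libraries and 4 higher, against 43.7% and 25.6% of all genes. Their median of -0.09 stayed negative only under median-of-ratios scaling (-0.02). It was between 0.03 and 0.14 under the other scalings and trend removals, where that of all genes was between -0.0088 and 0.12. LARP1 stood at 3.68, 4.54 and 4.86 FPKM (0.28 ± 0.19) and MLST8, a subunit of mTORC1, at 3.45, 4.31 and 3.78 (0.18 ± 0.20). MAX, the partner of MYC, was lower at 6.22, 4.07 and 3.67 FPKM (-0.57 ± 0.20), while MYC was at 1.78, 1.46 and 2.88. YY1 stood at 1.62, 1.29 and 1.53 FPKM. MTOR was below the test minimum, at 0.164, 0.136 and 0.351 FPKM. No gene of any list here passed an adjusted p under 0.05 in limma.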

How the data were processed

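RNA was taken with Trizol and sequenced from Illumina libraries, 1 control and 2 labelled shBCAT1, per the labels' protocols. The design text speaks of triplicate. Trim Galore, TopHat, Cufflinks and hg38 are named in the submitters' processing notes, without version, role or order. The deposited values are FPKM with confidence bounds, 1 entry per RefSeq transcript and locus, which the authors computed library by library, per the file headers. Not given in the sources used here are the annotation and the handling of reads with several matches, and total read numbers are unknown.

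Of 50337 accessions, 49281 were named from RefSeq (GRCh38.p14) and 625 from GENCODE 29. FPKM was summed over the 56882 entries per gene, alternative sequences included (5930 entries). A counting SD was taken as 1/2 of the distance from value to upper bound, combined over entries as if independent, and 73.7% of equivalent fragments of 498 genes of 1 entry came within 0.05 of a whole number. For genes of 1 entry the intervals largely cover counting error. For genes of several entries some are wider than counting error alone would give. No interval covers spread between cultures.

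The test was limma 3.58.1 (R 4.3.3) on log2(FPKM + 1) with an intensity trend, two-sided, Benjamini-Hochberg adjusted over 3889 genes that reached a mean of 1 FPKM with status OK (341 genes lacked that status). Fold differences of low genes are understated on that scale. The spread comes from the pair labelled shBCAT1 (residual degrees of freedom 1, prior 2.99), and the same was assumed for the control. The fit was tested on simulated data. Lengths came from GENCODE 29 exons within the deposited locus, and trends were removed by loess (span 0.5). Tables and plots used Python 3.11.15, pandas 2.3.3, numpy 2.4.6 and matplotlib 3.10.9.

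The values of 1 listed gene that is no member, and of its list, are not reported here. The members and lists were chosen with earlier results of these data known. Values in every library are given for the members of the named places in the subunit, the 5 most and 5 least negative members, the tested paralogues, and up to 4 genes of each other list by the smaller of their differences of like sign. RPL13A, RPL29, RPL35A, RPS6, MYC, MTOR, MDM2, MRPL46, EIF4A2, the members named by level and those named for the length trend were added after their values were seen. Alternatives covered the pseudocount (0.1 and 5), the minimum (none and 5 FPKM), scaling, trends, entries, status and each library labelled shBCAT1.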

Additional observations from a re-analysis of the deposited data

How the results depend on the processing

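No member passed an adjusted p under 0.05 in limma under any alternative that gave a test. The members' median difference of -0.48 stayed negative in every alternative. It was -0.40 with median-of-ratios scaling, -0.23 with the same FPKM total, -0.11 with quantile normalization, -0.16 and -0.12 with the length and the level trend removed, -0.21 with both removed, and -0.15 over the 23 members of 1 entry with the trend on the length read from the bounds removed. The same FPKM total moved the median of all genes from -0.06 to 0.12, and the members stood 0.34 below it (-0.34). Members lower in both libraries numbered 28 with quantile normalization (32.2% of all genes), 23 of 23 among genes of 1 entry (44.4%), and 19 of those 23 with that length trend removed (34.3%). Members at an unadjusted p under 0.05 in limma went from 24 (4.96% of all genes lower at that p) to 1 with median-of-ratios scaling (2.73%), 0 with the same total (1.08%), 0 with quantile normalization (2.08%), 3 and 0 with the length and level trends removed (1.72% and 3.06%), 1 with both removed (1.83%), and 13 without the intensity trend (4.53%). Among genes of 1 entry they numbered 9 (4.67%), and 0 with that length trend removed (1.44%). The same total, the joint removal of trends and the 2 alternatives on genes of 1 entry were chosen after seeing the data.

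RPL3 (0.15) turned positive with the same total. With quantile normalization those that did were RPL3 (0.26), RPL5 (0.20), RPL28 (0.14), RPL17 (0.13), RPL14 (0.095), RPL8 (0.036), RPL30 (0.039), RPL10 (0.031), RPL4 (0.016) and RPLP0 (0.011). With the length trend removed they were RPL30 (0.094), RPL3 (0.046), RPL8 (0.048), RPL28 (0.039), RPL17 (0.027) and RPL11 (0.011). With the level trend removed they were RPL3 (0.28), RPL8 (0.11), RPL14 (0.11), RPL5 (0.091), RPL28 (0.082), RPL30 (0.065), RPL17 (0.043), RPLP0 (0.023) and RPL11 (0.011). With both removed they were RPL3 (0.096), RPL30 (0.018) and RPL8 (0.014). With the highest entry in place of the sum it was RPL3 (0.27), which is its entry A, and among genes of 1 entry with the length trend removed RPL30 (0.089). The cause of the others was not tested.

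Leaving out each library labelled shBCAT1 in turn, as values with no test, gave medians of -0.54 to -0.45, 44 to 45 members below the control and a share difference of -1.89 to -1.26 points. RPL3 ranged from -0.20 to 0.00134, the latter without the library labelled shBCAT1 1. The share difference of -1.58 points became -2.24 of coding entries and -2.22 of loci of at least 300 bases. No paired analysis was possible because the control has 1 library, so the groups share fewer than 2 replicate numbers. The width of the bounds, summed over several entries, limits RPLP0, RPL11, RPL15, RPL34 and RPL36 in at least 1 library. Over all members the median counting SD was 3.74% to 4.23% of the level.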
